A study of Mus musculus with 6 samples.

Results

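The interstitial matrix genes described here are 35 genes of fibrillar and associated collagens, elastic fibres, matricellular proteins and crosslinking enzymes, taken as a fixed list of names. A probe set was kept where the platform annotation gave it exactly 1 symbol and that symbol was on the list. This gave 70 probe sets for 33 of the 35 genes, out of 45037 probe sets and 18193 genes on the array. Fbn1 had no such probe set and is not analysed here, and both Loxl2 probe sets also carry the symbol Gm21451 and were left out. All 33 genes passed the filter on dim signal through their brightest probe set, and 62 of the 70 probe sets were tested. Uteri of 3 control samples (Ihhf/f, both Indian hedgehog alleles floxed and no Cre stated) were compared with 3 Ihh-ablated samples (Ihhd/d, which the design gives as PRcre/+ Ihhf/f). Floxed Ihh is thus shared by all 6 samples, and the Cre, driven from 1 allele of the progesterone receptor locus, goes with the ablation. Total RNA came from uterine tissue with no cell type separated, at day -1 of the artificial decidual response, in which hormones and a stimulus turn endometrial stroma into decidua. The sources used here give neither strain nor age. Nor do they state that each sample is a separate mouse, so the p-values reflect only how much these arrays scatter, and that scatter may be technical. The source field names a SmoM2 (activated Smoothened) model in both groups, whereas titles, genotypes and design give the Ihh alleles used here.

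Interstitial matrix is laid down mainly by stromal fibroblasts and smooth muscle cells. Fibrillar collagens assemble as triple helices into fibrils, type I and type III being the bulk of the uterine stroma, while type V and type XI chains sit inside fibrils and limit their width. Elastic fibres form when tropoelastin is deposited on fibrillin microfibrils with the help of fibulins, and lysyl oxidases then crosslink collagen and elastin. In rodents the endometrial collagen network is loosened and rebuilt around decidualization. Indian hedgehog is made by the uterine epithelium under progesterone and acts on the stroma through Patched and the Gli factors.

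Each sample was read on 1 Affymetrix Mouse Genome 430 2.0 array, and values are the authors' intensities per probe set, treated here as linear. Array medians ran from 121.4 to 142.5, the highest being control replicate 2 and the next 125.8, and 3 arrays a group limit the precision. As the check of the ablation, Gli1, a Hedgehog target, read 515, 386 and 356 in control uteri and 76.3, 74.9 and 64.8 in Ihh-ablated uteri (log2 difference -2.53, adjusted p = 0.000492) and Ptch1, the Hedgehog receptor and target, differed by -1.65 (adjusted p = 0.00146). The Ihh probe set differed by -0.43 (adjusted p = 0.164, which did not pass), and where it lies relative to the deleted part is not stated. The uterine identity genes Hoxa10 and Hoxa11 were bright on every array and the smooth muscle markers, Myh11 among them, gave a summed intensity of 49828 to 53962 in control and 51472 to 51561 in Ihh-ablated uteri, with 1 of 8 called, Actg2, a smooth muscle actin (lower, log2 -0.25, adjusted p = 0.0337). Of 5 endothelial markers 1 was called, the junction protein Cdh5 (lower, log2 -0.57, adjusted p = 0.0275). The other 4, Pecam1, Tek, Kdr and Emcn, had positive log2 differences of 0.026 to 0.14 and did not pass. Markers of endometrial stroma and fibroblasts summed to 18185 to 21619 and 20301 to 21057, with 1 of 8 called higher (Dcn, log2 0.24, adjusted p = 0.0488) and 1 lower (Thy1, log2 -1.44, adjusted p = 0.00139). In this list 3 genes had a positive and 5 a negative difference. Hand2 (-0.43, adjusted p = 0.0514) and Pdgfrb (0.27, adjusted p = 0.119) had groups that did not overlap and did not pass. Adipocyte markers summed to 2711 to 13751 in control and 10654 to 25644 in Ihh-ablated uteri, with 0 of 7 called, and the lowest sum was that of control replicate 1. Striated muscle markers summed to 4440 to 14934 against 1742 to 2234, with 1 of 8 called (Acta1, lower), and the highest sum was that of control replicate 3. Acta1 alone read 4164, 3559 and 5482 in control uteri and 1199, 1162 and 1593 in Ihh-ablated uteri. Acta1, Ckm and Tnnc2 were the 3 of 8 with every Ihh-ablated array below every control array, against 19% of all genes. The others overlapped, Mylpf reading 83.9, 88.5 and 2075 in control uteri and 86.6, 73.7 and 80.8 in Ihh-ablated uteri. Pancreas markers summed to 51720 in Ihh-ablated replicate 2 and to 711 to 1780 in the other 5 arrays. The part that adipose, striated muscle or pancreas tissue has in the differences below was not tested. Values without control replicate 3 and Ihh-ablated replicate 2 are given where they change a call. In whole tissue, fewer cells of a type and less RNA per cell cannot be told apart.

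**Figure D1:**
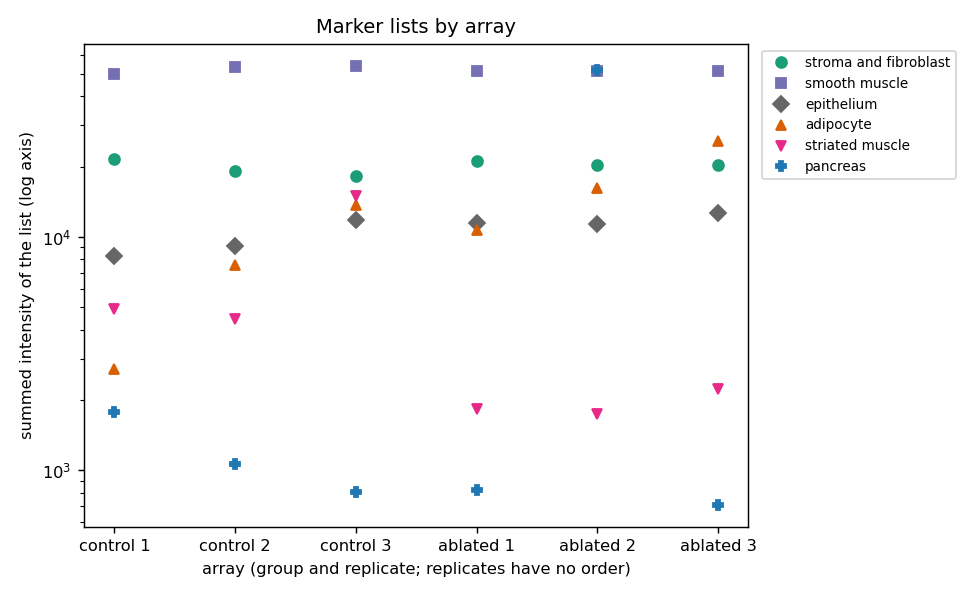
Summed intensity (log axis) of 6 marker lists on each of the 6 arrays, a point per array and list. Stroma and smooth muscle sums differ little between arrays, although single stroma markers differ in both directions (Thy1 lower, Dcn higher). The pancreas sum of Ihh-ablated replicate 2 reaches 51720 and the adipocyte sum of control replicate 1 is the lowest at 2711.

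Most of the matrix genes differed little between genotypes. At a limma adjusted p under 0.05, 1 of 33 genes was higher in Ihh-ablated uteri, the fibulin Fbln1, and 1 was lower, the type V collagen chain Col5a2, while 31 did not pass. Over the whole array 2.81% of 15530 tested genes were called (1.28% higher and 1.53% lower), so the share among the matrix genes, 2 of 33, lies near that background. Of the 33 genes, 15 had a positive and 18 a negative difference, where 56.7% of all genes had a negative one. The median log2 difference was -0.0043 against -0.041 over all genes, and the median absolute difference was 0.20 against 0.17. The 3 Ihh-ablated arrays lay wholly above the 3 control arrays for 5 genes and wholly below for 6, where such separation was seen in 32.3% of all genes (13.3% above and 19% below). At an unadjusted p under 0.05 there were 11 of the 33, against 24.2% of all genes. Probe set by probe set, 2 of 62 were called higher and 3 lower, against 2.14% of all 33777 tested probe sets (348 or 1.03% higher and 376 or 1.11% lower, or 286 and 201 with arrays centred on their medians). By role, all 7 fibrillar collagens had a negative value, against 56.7% of all genes. The smallest of the 7, Col1a2, turned positive with median-centred arrays. Among 10 elastic fibre genes 6 had a positive value (8 of their 19 tested probe sets). Without control replicate 3 and Ihh-ablated replicate 2 together, 3 genes were called higher (Fbln1, Ltbp1 and Postn) and 2 lower (Col5a2 and Col14a1). Calls depended on single arrays: without control replicate 3 alone 6 genes were called (Fbln1, Ltbp1 and Col8a1 higher and Col5a2, Col11a1 and Col14a1 lower), without Ihh-ablated replicate 2 alone 1 (Ltbp1, higher), and without any other single array 0.

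**Figure D2:**
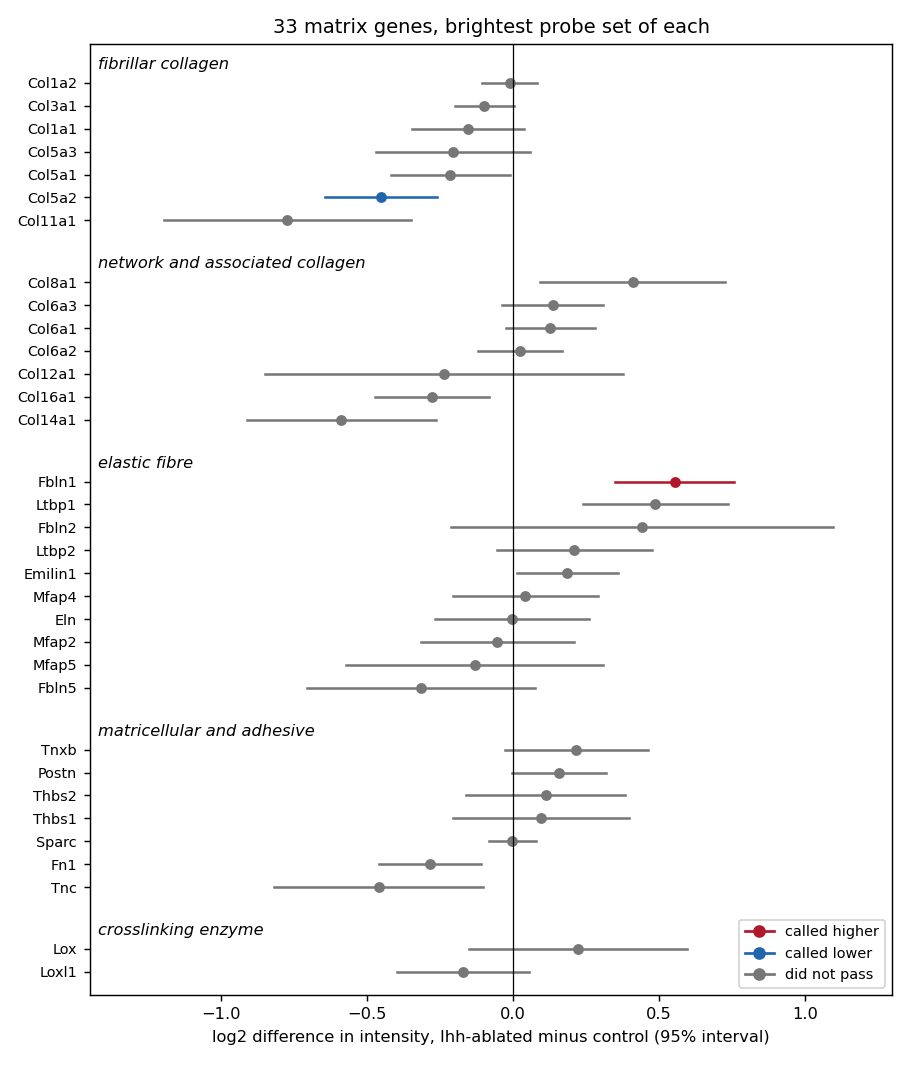
Log2 difference in intensity, Ihh-ablated minus control, with its 95% interval from the limma fit (n = 3 arrays a group), for the brightest probe set of each of 33 genes in 5 roles. Points of the 7 fibrillar collagens lie left of 0 (Col1a2, at -0.011, turns positive with median-centred arrays), Col5a2 (-0.45) is called lower and Fbln1 (0.55) higher, and the other 31 genes did not pass.

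Among the fibrillar collagens, 1 of 7 genes fell, 0 rose and 6 did not pass, where 1.53% of all genes were called lower. The median log2 difference was -0.20. Col5a2, the alpha 2 chain of type V collagen, which starts fibrils and sets their width, read 3404, 3026 and 2676 in control uteri and 2142, 2299 and 2188 in Ihh-ablated uteri. Every Ihh-ablated array was below every control array, and control replicate 1 was the highest. The mean went from 3035 ± 364 to 2209.8 ± 81.1 (SD, n = 3 each), 1.37-fold lower, a log2 difference of -0.45 (SE 0.085, adjusted p = 0.0319). Its other probe set also had groups that did not overlap, 943, 663 and 604 in control uteri and 472, 467 and 505 in Ihh-ablated uteri, with a difference of -0.59 that did not pass (adjusted p = 0.0851). The call of Col5a2 was lost on leaving out any single array except control replicate 3 (adjusted p = 0.0584 to 0.120) and was kept without control replicate 3 and Ihh-ablated replicate 2 together (-0.57, adjusted p = 0.00407). With median-centred arrays it was -0.36, adjusted p = 0.121.

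The chains of type I and type III collagen, the main fibril proteins of the stroma, were among the brightest signals of the array. Col3a1, the type III chain and the next protein-coding gene to Col5a2 on chromosome 1, read 13192, 12022 and 12427 in control uteri and 12196, 11248 and 11714 in Ihh-ablated uteri with its brightest probe set. Those groups overlapped, and the difference was -0.098 (SE 0.045, adjusted p = 0.231). Its second probe set read 2324, 1874 and 1690.5 in control uteri and 1378, 1288 and 1359 in Ihh-ablated uteri, so that every Ihh-ablated array was below every control array, and it was called lower by 1.45-fold (log2 -0.54, SE 0.11, adjusted p = 0.0403). Col1a2, the alpha 2 chain of type I collagen, showed the same split between probe sets. Its brightest read 9455, 9612 and 9320.4 in control uteri and 9768, 9499 and 8929.6 in Ihh-ablated uteri, a difference of -0.011 with a 95% interval of -0.11 to 0.084. The second Col1a2 probe set read 5212, 5163 and 5146 in control uteri and 4495, 4389 and 4429 in Ihh-ablated uteri, which was 1.17-fold lower (log2 -0.22, SE 0.042, adjusted p = 0.0312). Another Col1a2 probe set differed by 0.33 (adjusted p = 0.416). Both second probe sets lost the call on leaving out any single array except control replicate 3, and without control replicate 3 and Ihh-ablated replicate 2 together the Col3a1 value was -0.61, adjusted p = 0.0107 and the Col1a2 value -0.22, adjusted p = 0.0617. With median-centred arrays the Col3a1 value was -0.45, adjusted p = 0.121 and the Col1a2 value -0.13, adjusted p = 0.323, so that 0 of the 3 lower calls of probe sets were left, and none of the 5 calls was made without the intensity trend. Col1a1, the alpha 1 chain of type I collagen, gave -0.15 (interval -0.34 to 0.038) and -0.26 with its 2 probe sets, and neither passed (adjusted p = 0.301 and 0.184).

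**Figure D3:**
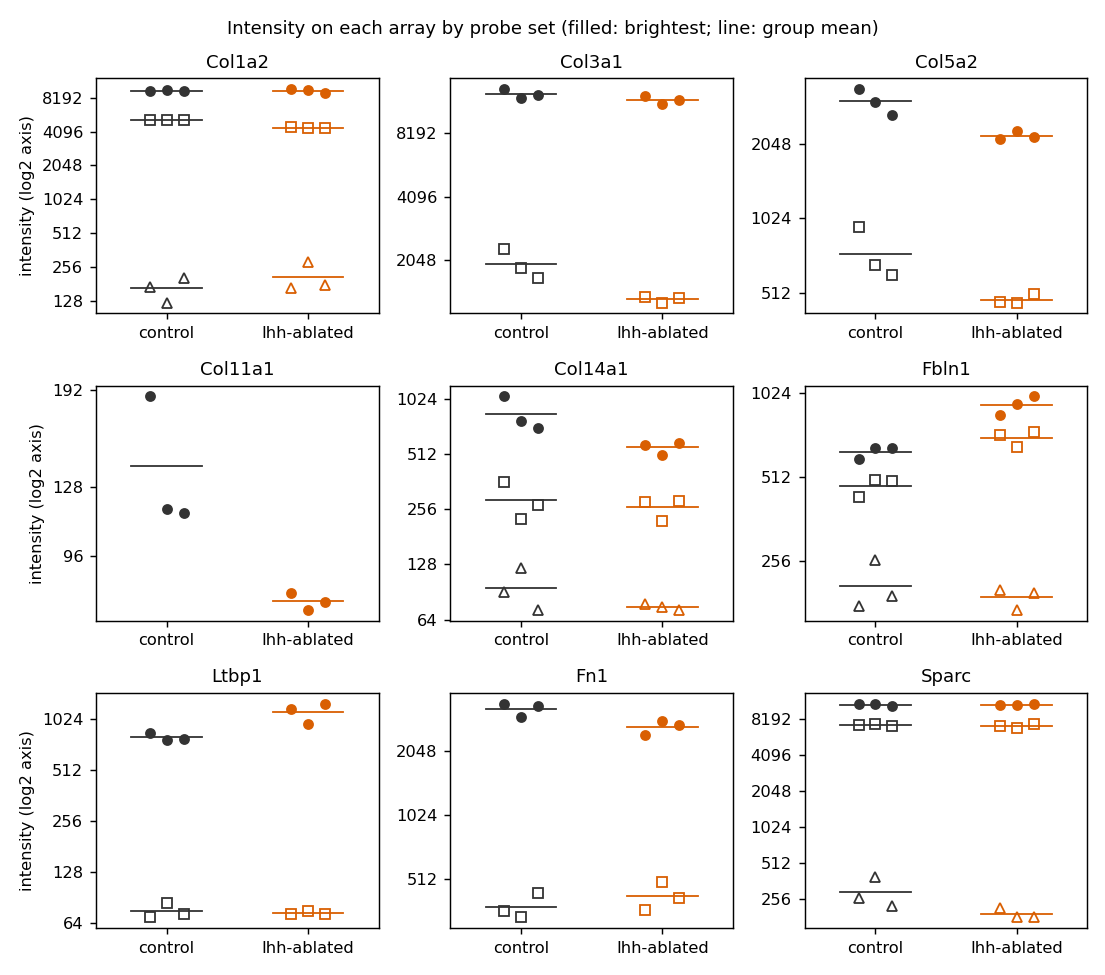
Intensity (log2 axis) on each array for the tested probe sets of 9 genes, with filled points for the brightest probe set, open points for the others, and a line at each group mean (n = 3 arrays a group). The second probe sets of Col1a2 and Col3a1 and both of Col5a2 lie lower in Ihh-ablated uteri, 2 of 3 Fbln1 probe sets lie higher, and the brighter Sparc probe sets lie level.

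Because these 2 chains gave the calls in the main fibril collagens, the 250 bases before their start sites are shown with the matches searched for in capitals. The letters searched for, on both strands, were the CCAAT box (CCAAT), the TATA box (TATAAA), the GC box (GGGCGG) and a Gli motif (TGGGTGGTC). The sequences are RefSeq's, build GRCm38.p6, both on the plus strand, at chr6:4505368-4505617 and chr1:45311288-45311537.
Col1a2: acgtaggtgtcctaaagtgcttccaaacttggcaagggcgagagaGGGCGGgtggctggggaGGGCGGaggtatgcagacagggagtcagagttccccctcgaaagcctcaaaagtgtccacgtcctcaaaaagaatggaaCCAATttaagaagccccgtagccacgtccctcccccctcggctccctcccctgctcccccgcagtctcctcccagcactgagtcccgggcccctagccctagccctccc
Col3a1: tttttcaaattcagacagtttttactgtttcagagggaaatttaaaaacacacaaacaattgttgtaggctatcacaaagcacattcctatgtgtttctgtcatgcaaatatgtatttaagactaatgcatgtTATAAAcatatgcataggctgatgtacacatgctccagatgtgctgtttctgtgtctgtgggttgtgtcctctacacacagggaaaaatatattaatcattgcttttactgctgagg
In Col1a2 a CCAAT begins 109 bases before the start and GGGCGG stands 205 and 188 bases before it. In Col3a1 a TATAAA begins 117 bases before the start. RefSeq's table held 30 such windows for 23 of the 35 genes, windows of 1 gene overlapping in part, with none for Col5a2. On either strand, GGGCGG was found in 16 of the 30 windows (53.3%, against 32.7% of 32851 windows of all genes), CCAAT in 8 (26.7% against 33.8%) and TATAAA in 5 (16.7% against 12.4%). The Gli motif was in 0 of the 30 and in 0.225% of all windows, which says only that these letters are not in these windows.

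Col11a1, the type XI chain that copolymerises with type V collagen in thin fibrils, had the most negative difference of all 33 genes. Its signal was dim, at percentile 41 of all probe sets, and its other probe set overlapped and was too dim to test. The brightest Col11a1 probe set read 187, 117 and 115 in control uteri and 82.6, 76.8 and 79.6 in Ihh-ablated uteri. The groups did not overlap, with control replicate 1 well above the other 2 controls, and the difference of -0.77 (SE 0.19) did not pass (adjusted p = 0.0728). It was called without control replicate 3 (-0.89, adjusted p = 0.0243), and without control replicate 1 it was -0.54, adjusted p = 0.125. Col5a1, the alpha 1 chain of type V collagen and the partner of Col5a2, read 2146, 2389 and 2171 in control uteri and 1896, 2179 and 1726 in Ihh-ablated uteri, with groups that overlapped through Ihh-ablated replicate 2. Its difference was -0.21 (adjusted p = 0.200), and its other 2 probe sets gave -0.11 and -0.074. Col5a3, the rarer alpha 3 chain, differed by -0.20 (interval -0.47 to 0.059). Over the tested probe sets of fibrillar collagens, 13 of 14 had a negative difference, against 56.6% of all tested probe sets. For 5 of the 14 every Ihh-ablated array was below every control array, against 17.9% of all tested probe sets, and probe sets of 1 gene are not independent. With median-centred arrays or array weights, and without control replicate 2 or Ihh-ablated replicate 3, 6 of the 7 genes were negative and Col1a2 was positive.

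Of the 7 network-forming and fibril-associated collagens, 0 were called by limma (3 at an unadjusted p under 0.05), and they lay on both sides of 0 (median 0.024). Over all genes 2.81% were called and 24.2% had an unadjusted limma p under 0.05. Col14a1, a fibril-associated collagen of dense connective tissue, read 1056, 774 and 711 in control uteri and 573, 506 and 591 in Ihh-ablated uteri and had groups that did not overlap, control replicate 1 again being highest. The difference was -0.59 (SE 0.14, adjusted p = 0.0734), it was called without control replicate 3 (-0.70, adjusted p = 0.0175) and without that array and Ihh-ablated replicate 2 together (-0.64, adjusted p = 0.0324), and its 2 other tested probe sets, at -0.11 and -0.31, overlapped. Col16a1, another fibril-associated chain, read 1005, 952 and 933 in control uteri and 724, 854 and 812 in Ihh-ablated uteri. Here too each Ihh-ablated array was below each control array, with a difference of -0.28 (SE 0.087) that did not pass (adjusted p = 0.124). Col12a1, which decorates type I fibrils, differed by -0.24 with a wide interval of -0.85 to 0.38.

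Type VI collagen, which forms beaded filaments around cells, had small positive differences in all 3 measured chains, of which Col6a2 changed sign when control replicate 1 (-0.0063) or Ihh-ablated replicate 2 (-0.049) was left out, or the latter together with control replicate 3 (-0.016). Col6a1 read 4823, 4700.0 and 5245 in control uteri and 5085, 5902 and 5165 in Ihh-ablated uteri, a difference of 0.13 (interval -0.025 to 0.28, adjusted p = 0.285). The groups overlapped, and Ihh-ablated replicate 2 was the highest array. Ihh-ablated replicate 2 was also the highest for Col6a2 (0.024, interval -0.12 to 0.17) and Col6a3 (0.14, interval -0.036 to 0.31). Col8a1, a short-chain collagen of vessels and stroma, read 79.3, 78.8 and 101 in control uteri and 105, 115 and 123 in Ihh-ablated uteri. Its groups did not overlap but lay close together, the difference of 0.41 (SE 0.14) passed only without control replicate 3 (adjusted p = 0.145 with all arrays and 0.0452 without it), and a second probe set gave 0.021.

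Among the elastic fibre genes 1 of 10 rose, 0 fell and 9 did not pass, where 1.28% of all genes were called higher. The median log2 difference was 0.11 over brightest probe sets and -0.0071 over all 19 tested probe sets, 8 of which were positive and 11 negative. Fbln1, fibulin-1, a glycoprotein of elastic fibres and basement membranes that binds fibronectin and versican, read 592, 649.9 and 652 in control uteri and 851, 935 and 996 in Ihh-ablated uteri. All 3 Ihh-ablated arrays were above all 3 control arrays. The mean went from 631 ± 34.0 to 927 ± 72.7 (SD, n = 3 each), 1.47-fold higher, a log2 difference of 0.55 (SE 0.090, adjusted p = 0.0178). A second probe set agreed in size, 436, 499 and 494 in control uteri and 722, 655 and 742 in Ihh-ablated uteri, at 1.48-fold higher (log2 0.57, SE 0.096, adjusted p = 0.0205). The remaining Fbln1 probe set differed by -0.12 and overlapped (adjusted p = 0.650). The call of the brightest was lost on leaving out any single array except control replicate 3 (adjusted p = 0.0508 to 0.0798) and in the mean of its probe sets (0.33, adjusted p = 0.0962), and it was kept without control replicate 3 and Ihh-ablated replicate 2 together (0.57, adjusted p = 0.0253).

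As Fbln1 was the gene that rose, the 250 bases before the second of its 2 start sites in RefSeq (build GRCm38.p6, plus strand, chr15:85205758-85206007) are shown, with the single match, the reverse complement of GGGCGG that begins 11 bases before the start, in capitals.
Fbln1: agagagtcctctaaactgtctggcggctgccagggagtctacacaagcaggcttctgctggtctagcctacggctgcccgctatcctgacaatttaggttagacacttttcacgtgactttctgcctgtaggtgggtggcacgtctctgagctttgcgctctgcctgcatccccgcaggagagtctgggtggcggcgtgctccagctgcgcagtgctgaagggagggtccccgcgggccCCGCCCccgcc
The window of the other start site overlaps this one and held 0 matches.

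Ltbp1, which holds latent TGF-beta in the matrix, came next to Fbln1 and read 850.4, 770.5 and 786 in control uteri and 1175, 954 and 1268 in Ihh-ablated uteri. The groups did not overlap, and the difference of 0.49 (SE 0.11) just missed the test (adjusted p = 0.0574), whereas it passed without control replicate 3 (0.47, adjusted p = 0.0456), without Ihh-ablated replicate 2 (0.61, adjusted p = 0.0275) and without both (0.59, adjusted p = 0.0125). Its other tested probe set gave -0.028. Emilin1, a glycoprotein between elastin and microfibrils, read 1042, 1003 and 1027 in control uteri and 1234, 1077 and 1187 in Ihh-ablated uteri. Its groups did not overlap although the difference was small, 0.19 (SE 0.077, adjusted p = 0.195). Ltbp2, a relative of Ltbp1 that binds fibrillin and not TGF-beta, also had all Ihh-ablated arrays above all controls and differed by 0.21 (adjusted p = 0.304).

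Fbln5, the fibulin that ties elastin to cells and lysyl oxidases, read 802, 511 and 541 in control uteri and 424, 492 and 554 in Ihh-ablated uteri. The groups overlapped, control replicate 1 stood above the other 5 arrays, and the difference was -0.31 (SE 0.17, adjusted p = 0.299). Fbln2 varied more within the control group than between groups, at 244, 458 and 593 in control uteri and 688, 548 and 440.4 in Ihh-ablated uteri (0.44, interval -0.21 to 1.10), and its second probe set had the opposite sign (-0.53, adjusted p = 0.221). Eln, tropoelastin itself, differed by -0.0043 with an interval of -0.27 to 0.26, and its other probe set by -0.092. The microfibril-associated glycoproteins Mfap2, Mfap4 and Mfap5 differed by -0.053, 0.043 and -0.13, each with an interval that includes 0. A second Mfap2 probe set, of a type (x) whose probes can also bind other transcripts, had groups that did not overlap (-0.24, adjusted p = 0.183).

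Of the 7 matricellular and adhesive genes, 0 were called by limma (2 at an unadjusted p under 0.05), where 2.81% of all genes were called (24.2% unadjusted). In this role 4 genes had a positive and 3 a negative difference, and the median was 0.096. Fn1, fibronectin, which guides collagen assembly and binds integrins, read 3429, 2968 and 3335 in control uteri and 2433, 2843 and 2723 in Ihh-ablated uteri. Each Ihh-ablated array was below each control array, and the difference was -0.28 (SE 0.078, adjusted p = 0.0968), while a second probe set gave 0.16 and overlapped. Tnc, tenascin-C, a glycoprotein of remodelling stroma, read 316, 238 and 223 in control uteri and 213, 165 and 185 in Ihh-ablated uteri. These groups did not overlap either, control replicate 1 was highest, and the difference of -0.46 (SE 0.16) did not pass (adjusted p = 0.146).

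Postn, periostin, a matricellular protein that promotes collagen crosslinking, read 3419, 3451 and 3556 in control uteri and 4136, 3461 and 4069 in Ihh-ablated uteri. The lowest Ihh-ablated array, replicate 2, overlapped the controls, with a difference of 0.16 (SE 0.071, adjusted p = 0.222) that passed without control replicate 3 and Ihh-ablated replicate 2 (0.26, adjusted p = 0.0465). Tnxb, tenascin-X, which spaces collagen fibrils, read 990.2, 1166 and 922 in control uteri and 1161, 1084 and 1327 in Ihh-ablated uteri, again with overlap, and differed by 0.22 (SE 0.11, adjusted p = 0.262). Sparc, a collagen-binding matricellular protein, read 10795, 10944 and 10351 in control uteri and 10669, 10548 and 10808 in Ihh-ablated uteri, and its difference of -0.0026 had the narrowest interval of the 33 genes, -0.083 to 0.077. Another Sparc probe set had groups that did not overlap (-0.57, adjusted p = 0.146). The thrombospondins Thbs1 and Thbs2, which bind matrix proteins and growth factors, differed by 0.096 (interval -0.20 to 0.40) and 0.11 (interval -0.16 to 0.39). A second Thbs2 probe set had all Ihh-ablated arrays above all controls and did not pass (0.24, adjusted p = 0.264). The second Thbs1 probe set overlapped (0.22, adjusted p = 0.313).

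Of the lysyl oxidases, which crosslink collagen and elastin, 0 of the 2 tested genes were called by limma (0 at an unadjusted p under 0.05). The shares over all genes were 2.81% called and 24.2% unadjusted. Lox read 715, 585 and 444 in control uteri and 617, 624 and 766 in Ihh-ablated uteri. The groups overlapped, with a difference of 0.22 and an interval of -0.15 to 0.60. A second Lox probe set had all Ihh-ablated arrays above all controls, 349, 326 and 223 in control uteri and 355, 349.6 and 409 in Ihh-ablated uteri, and did not pass (log2 0.33, adjusted p = 0.261). Loxl1, the form tied to elastic fibre upkeep, differed by -0.17 (interval -0.40 to 0.055), and its second probe set by 0.11.

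The probe sets of a gene did not always give the same answer. Of 23 genes with more than 1 tested probe set, 17 had the same sign in all and 6 had both signs (Col1a2, Fbln1, Fbln2, Fn1, Loxl1 and Ltbp1). Probe sets of 1 gene can read different parts or splice forms of its transcript, and the sources used here do not give their positions. By array, control replicate 1 was the highest for 12 of the 33 genes, Col5a2, Col11a1, Col14a1, Col16a1, Tnc, Fbln5 and Mfap5 among them, and Ihh-ablated replicate 3 for 7. Control replicate 1 also had the lowest sums of adipocyte (2711) and epithelial (8282) markers and the highest of stroma and fibroblast markers (21619), and their part in these values was not tested. Over all 33 genes the arrays lay level, their median deviation from the mean of the 6 arrays running from -0.040 to 0.050 on the log2 scale. Over the fibrillar collagens alone it was 0.067 to 0.12 in the control arrays and -0.13, 0.011 and -0.15 in Ihh-ablated replicates 1, 2 and 3.

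**Figure D4:**
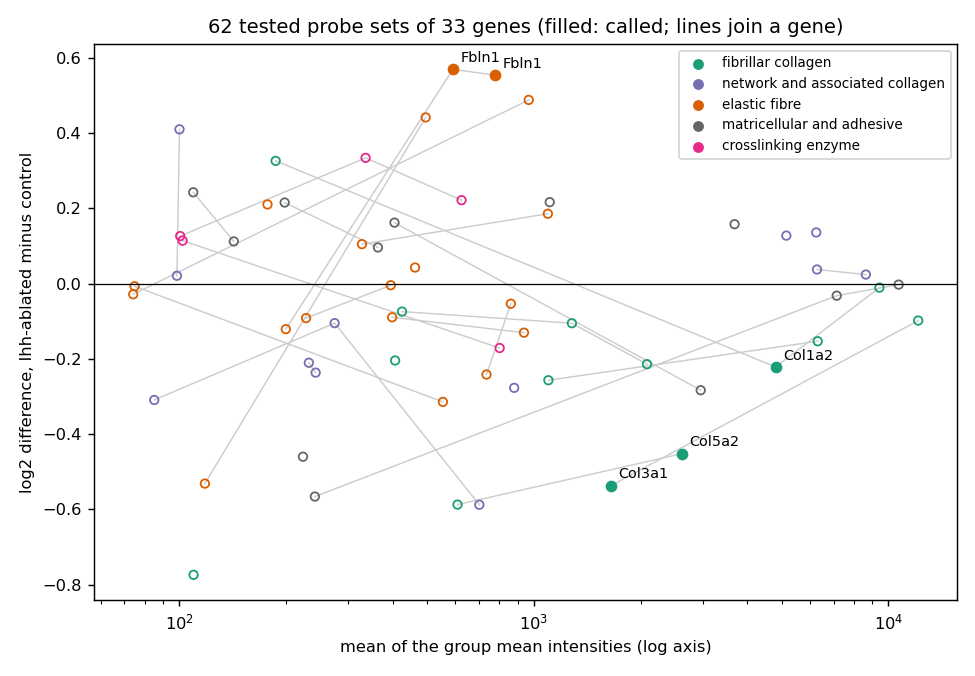
Log2 difference (Ihh-ablated minus control) of the 62 tested probe sets of 33 genes against mean intensity (log axis), coloured by role, with grey lines joining probe sets of a gene and filled points for the 5 that were called. The 3 called lower belong to Col1a2, Col3a1 and Col5a2 and the 2 called higher to Fbln1.

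Of genes that fold, modify and process collagen, 30 of 33 had a probe set and 29 were tested: 2 fell, 1 rose and 26 did not pass, where 1.53% of all genes were called lower and 1.28% higher. The median log2 difference was -0.076. Crtap, part of the endoplasmic reticulum complex that hydroxylates collagen prolines, read 1520.0, 1335 and 1388 in control uteri and 912, 1062 and 910.3 in Ihh-ablated uteri, 1.47-fold lower with groups that did not overlap (log2 -0.56, SE 0.088, adjusted p = 0.0162). Pcolce, which speeds removal of the procollagen C-propeptide, differed by -0.44 (SE 0.089, adjusted p = 0.0413). Sparcl1, a relative of Sparc that binds collagen, rose by 0.41 (SE 0.069, adjusted p = 0.0221). Crtap lost the call without control replicate 1 or Ihh-ablated replicate 1 or 3 (adjusted p = 0.0645 to 0.0823), Pcolce without any single array except control replicate 3 (0.0546 to 0.155) and Sparcl1 without control replicate 1 or 2 or Ihh-ablated replicate 1 (0.0595 to 0.101). With median-centred arrays 0 of the 29 were called, and without control replicate 3 and Ihh-ablated replicate 2 together 5 were.

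Among 41 further genes of elastic fibres, fibrils and their receptors, 35 had a probe set and 31 were tested: 4 rose, 2 fell and 25 did not pass, where 1.28% of all genes were called higher and 1.53% lower. The median log2 difference was -0.099. Tgfbi, a collagen-binding protein induced by TGF-beta, read 839, 1009 and 1429 in control uteri and 1991, 2522 and 2409.7 in Ihh-ablated uteri, 2.15-fold higher (log2 1.11, SE 0.17, adjusted p = 0.0154). Ddr1, a receptor for fibrillar collagen found mainly on epithelium, rose by 0.51 (adjusted p = 0.0191), though the mean of its probe sets gave 0.13 (adjusted p = 0.377). The called Ddr1 probe set is also of the x type, whose probes can bind other transcripts. Epithelial markers summed to 8282 to 11774 in control and 11357 to 12611 in Ihh-ablated uteri, with 0 of 7 called, and their part in the Ddr1 value was not tested. Mmrn1, multimerin-1 of platelets and endothelium, rose by 0.54 and Col8a2, the partner chain of Col8a1, by 0.63 (adjusted p = 0.0278 and 0.0375).

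Fbn2, fibrillin-2, a microfibril protein best known from developing tissue, read 439, 419 and 376 in control uteri and 254, 263 and 247 in Ihh-ablated uteri, 1.61-fold lower with groups that did not overlap (log2 -0.69, SE 0.10, adjusted p = 0.0128). Efemp1, fibulin-3, read 1964, 1686 and 1737 in control uteri and 1168, 1172 and 1296 in Ihh-ablated uteri, 1.48-fold lower, also without overlap (log2 -0.57, SE 0.081, adjusted p = 0.0117). All 6 calls of this group were lost without control replicate 1 (adjusted p = 0.0551 to 0.124), and without Ihh-ablated replicate 1 that of Tgfbi alone was kept. Without control replicate 2 those of Fbn2 and Efemp1 were kept, and without Ihh-ablated replicate 3 that of Efemp1. Mmrn1 and Col8a2 also lost theirs without Ihh-ablated replicate 2. Without control replicate 3 and Ihh-ablated replicate 2 together 6 genes were called, with Mmrn1 and Col8a2 no longer among them (adjusted p = 0.0513 and 0.0590). The 6 genes kept their direction in all 18 alternatives.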

How the data were processed

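RNA of 6 uterine samples was read on Affymetrix Mouse Genome 430 2.0 arrays. The authors deposited intensities per probe set, and their summary method, normalization and scale are not stated in the labels. The values were treated as linear and kept on the authors' scale. After 64 control probe sets were removed, values under 16 were set to 16 and log2 was taken. The 25% of probe sets with the lowest mean were left out, and 33777 were tested with limma 3.58.1 (R 4.3.3; lmFit, then eBayes with an intensity trend; 4 residual degrees of freedom), Ihh-ablated minus control. Benjamini-Hochberg adjustment ran over every tested probe set, and calls are adjusted p under 0.05. A gene is its brightest probe set with 1 symbol in the platform annotation; 34945 probe sets had 1 symbol, 932 several and 9160 none. SE and 95% intervals come from the fit.

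Members and lists were chosen with earlier results of these data known. The rule for named genes gave array values and full statistics for the called members and those of lowest adjusted p up to 16, and for called genes of other lists. The array values of Col1a2, Sparc, Fbln2 and Lox, and other probe sets that are not called, were added after their values were seen. Promoter letters were searched on both strands of RefSeq windows. The fit was tested on simulated data. Alternatives covered normalization, floor, filter, variance model, replicate block, probe set mean and left-out arrays.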

Additional observations from a re-analysis of the deposited data

How the results depend on the processing

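Over 18 alternatives, the directions of 28 to 33 of the 33 genes held (31 of the 31 tested with the lowest 50% left out), and no called gene reversed. Among all 33 members, where 2 were called, the counts were 1 with median-centred arrays, 1 with no filter, 0 without the intensity trend, 4 with array weights, 5 without control replicate 3 and Ihh-ablated replicate 2 together, 0 with the mean of a gene's probe sets, and 0 to 6 on leaving out single arrays. Among the 62 member probe sets, where 5 were called, they were 2 median-centred, 3 with no filter, 0 without the trend, 8 with array weights, 8 without both arrays and 0 to 11 on leaving out single arrays. Called collagen processing genes (3) numbered 0 median-centred, 0 without the trend, 5 without both arrays and 0 to 5 on leaving out single arrays; other elastic fibre and fibril genes (6) numbered 0 to 10. For probe sets called over the array (724) the counts were 374 without the trend, 1411 with array weights, 1981 without both arrays and 148 to 3582 on leaving out single arrays. The cause of these shifts was not tested.

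After each group's mean was taken out, same-numbered arrays correlated at -0.15, -0.043 and 0.25, and differently numbered ones at -0.24 to 0.32. With 3 arrays a group this cannot show whether the replicate numbers pair the samples. With the replicate block, 5 members, 9 member probe sets and 1562 by the count of probe sets called over the array passed.

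Signs that reversed belonged to uncalled values. Median-centred arrays gave 0.081 for Col1a2, 0.087 for Eln, 0.038 for Mfap2 and 0.089 for Sparc. Array weights gave 0.0054 for Col1a2, -0.013 for Mfap4 and 0.00023 for Sparc. The mean of probe sets gave 0.031 for Col1a2 and -0.045 for Fbln2. Without both arrays Col6a2 gave -0.016, Eln 0.045 and Mfap4 -0.0053.
Leaving out single arrays gave -0.039 to 0.026 for Col1a2, -0.049 to 0.070 for Col6a2, -0.52 to 0.077 for Col12a1, -0.057 to 0.080 for Eln, -0.19 to 0.031 for Mfap2, -0.028 to 0.12 for Mfap4, -0.30 to 0.11 for Mfap5 and -0.026 to 0.014 for Sparc.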
